A study of Homo sapiens with 12 samples.

Results

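The genes described here make or move cholesterol and make fatty acids. There were 34 of them among the 45416 genes of the RNA-seq table, listed by name from their known roles, and all 34 passed the filter on low reads and were tested. They comprised 18 enzymes of sterol synthesis, 4 controllers of the SREBP transcription factors, 6 enzymes of fatty acid synthesis, 2 sterol transport proteins and 4 genes of cholesterol efflux and oxysterol production. The libraries came from U251, an established human glioblastoma cell line. Cells carried the control siRNA (siNC) or either of 2 duplex siRNAs against *PD-L1* (siPDL1-1 and siPDL1-2). Each siRNA was studied in unstimulated cells and in cells given IFNγ at 100 U/ml for 24 h, which made 6 groups of 2 libraries. All groups were transfected, so no library shows untransfected cells, and every library is from a single cell line. The methods describe 2 independent experiments, and the p-values measure the spread between these libraries.

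Cells sense cholesterol in the endoplasmic reticulum membrane. When sterols are scarce, SCAP escorts the SREBP proteins to the Golgi apparatus, where they are cleaved into active transcription factors that switch on genes of cholesterol and fatty acid synthesis. When sterols are plentiful, INSIG proteins hold SCAP back, and oxysterols activate the nuclear receptor LXR, which raises the cholesterol exporters *ABCA1* and *ABCG1*. Glioma cells are known for a high demand for cholesterol, and interferons are known to alter sterol metabolism in immune cells.

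Promoter windows are shown for *SREBF2*, which encodes the SREBP that mainly drives sterol synthesis, and for the genes whose levels changed with an siRNA or with IFNγ in distinct ways, *INSIG1*, *MSMO1* and *STARD4*. Each window runs 5′ to 3′ on the gene's strand, from 250 bases before to 50 bases after the RefSeq transcription start (GRCh38.p14). Capitals mark the sterol regulatory element TCACNCCAC and the NF-Y box CCAAT on either strand. The windows are chr7:155297628-155297927 on the plus strand for *INSIG1*, chr4:165327419-165327718 on the plus strand for *MSMO1*, chr5:111512486-111512785 on the minus strand for *STARD4* and chr22:41832855-41833154 on the plus strand for *SREBF2*.
INSIG1: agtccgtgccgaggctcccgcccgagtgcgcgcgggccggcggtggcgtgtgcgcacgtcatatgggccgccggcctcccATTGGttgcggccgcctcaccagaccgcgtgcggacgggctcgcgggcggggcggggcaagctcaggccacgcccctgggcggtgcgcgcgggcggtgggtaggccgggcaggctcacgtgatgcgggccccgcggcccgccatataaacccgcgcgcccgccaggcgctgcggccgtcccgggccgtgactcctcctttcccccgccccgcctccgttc
MSMO1: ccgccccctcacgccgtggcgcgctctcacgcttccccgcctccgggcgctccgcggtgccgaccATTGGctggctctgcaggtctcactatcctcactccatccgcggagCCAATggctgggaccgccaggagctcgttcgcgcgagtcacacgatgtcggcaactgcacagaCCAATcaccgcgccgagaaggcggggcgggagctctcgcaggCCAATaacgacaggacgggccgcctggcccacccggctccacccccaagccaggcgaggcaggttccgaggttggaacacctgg
STARD4: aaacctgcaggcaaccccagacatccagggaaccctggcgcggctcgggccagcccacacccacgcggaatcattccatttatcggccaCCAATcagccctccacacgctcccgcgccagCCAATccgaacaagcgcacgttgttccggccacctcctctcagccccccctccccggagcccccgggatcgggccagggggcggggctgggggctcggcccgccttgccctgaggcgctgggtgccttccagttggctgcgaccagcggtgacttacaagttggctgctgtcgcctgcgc
SREBF2: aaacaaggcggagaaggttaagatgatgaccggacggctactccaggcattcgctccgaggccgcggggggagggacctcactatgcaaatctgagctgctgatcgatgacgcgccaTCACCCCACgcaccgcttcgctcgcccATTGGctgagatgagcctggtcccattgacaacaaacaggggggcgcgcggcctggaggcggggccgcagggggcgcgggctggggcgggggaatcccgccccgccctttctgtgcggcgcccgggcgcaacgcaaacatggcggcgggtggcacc
The *MSMO1* window held 4 CCAAT boxes, that of *STARD4* 2, and those of *INSIG1* and *SREBF2* 1 each. The *SREBF2* window alone among 37 windows of 29 of the genes held TCACNCCAC, which occurred in 1.13% of the 35116 promoter windows of the same length. CCAAT was in 23 of the 37 windows (62.2%), against 34.6% of all windows. The Sp1 letters GGGCGG, searched on both strands, were in 33 of the 37 (89.2%), against 44.95% of all windows. The 3 motifs were searched separately, and a match describes letters, not a bound site. No promoter window was found for *ACAT2*, *ABCG1*, *SQLE*, *FDFT1* and *FASN*, so these genes were not searched.

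The deposited values, called CPM here as in the table, were reads per 1e6 counted reads times a further factor of the authors' normalization, 0.965 to 1.042 by library. Libraries held between 17.1e6 and 55.7e6 reads on genes. Groups were compared with limma on log2(CPM + 1) in a single fit of all 12 libraries, and p-values were adjusted over the 17982 genes tested (FDR, Benjamini-Hochberg). A gene was called at FDR < 0.01 with a fold change above 1.5, and genes at FDR < 0.01 whatever the fold change were also counted. Log2 fold changes are on the log2(CPM + 1) scale, with 1 standard error (SE).

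*CD274*, which encodes PD-L1, served as the check of the knockdown. It was at 4.60 and 4.91 CPM in unstimulated siNC cells, 2.67 and 2.73 CPM with siPDL1-1 and 3.57 and 3.45 CPM with siPDL1-2. After IFNγ it was at 71.2 and 76.0 CPM with siNC, 60.9 and 66.7 CPM with siPDL1-1 and 37.5 and 35.0 CPM with siPDL1-2. The siPDL1-1 libraries lay below both siNC libraries in each state, but the log2 fold change after IFNγ, -0.20, did not pass the test (SE 0.076, FDR = 0.0498, limma). A lower level of *CD274* in the libraries labelled siPDL1-1 with IFNγ was thus not shown, and directions drawn from them rest on the label. *VIM*, an intermediate filament gene of mesenchymal and glioma cells, was at 3139 to 3968 CPM in the 12 libraries, whereas the astrocyte gene *GFAP* was low, at 1.92 to 7.25 CPM. The 6 leukocyte markers (among them *PTPRC*, *CD3E* and *CD14*) summed to at most 0.841 CPM in any library. The 4 endothelial markers summed to 5.75 to 12.97 CPM, of which *KDR* was the most abundant.

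*SCD*, the desaturase that makes oleate, was the most abundant of the 34 genes per length, with 340 CPM per kilobase of exon on average over the 12 libraries. *FASN* and *FDPS* followed at 73.2 and 72.8 CPM per kilobase, and *ABCG1* and *CH25H* were last at 0.492 and 0.298 CPM per kilobase. Summed over each library, the 6 fatty acid genes held 2913 and 2944 CPM in unstimulated siNC cells and 2411 and 2307 CPM in siNC cells after IFNγ. The 18 sterol synthesis genes held 1522 and 1523 CPM without and 1417 and 1432 CPM with IFNγ. In bulk libraries, fewer cells that express a gene and less RNA per cell cannot be told apart.

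**Figure D1:**
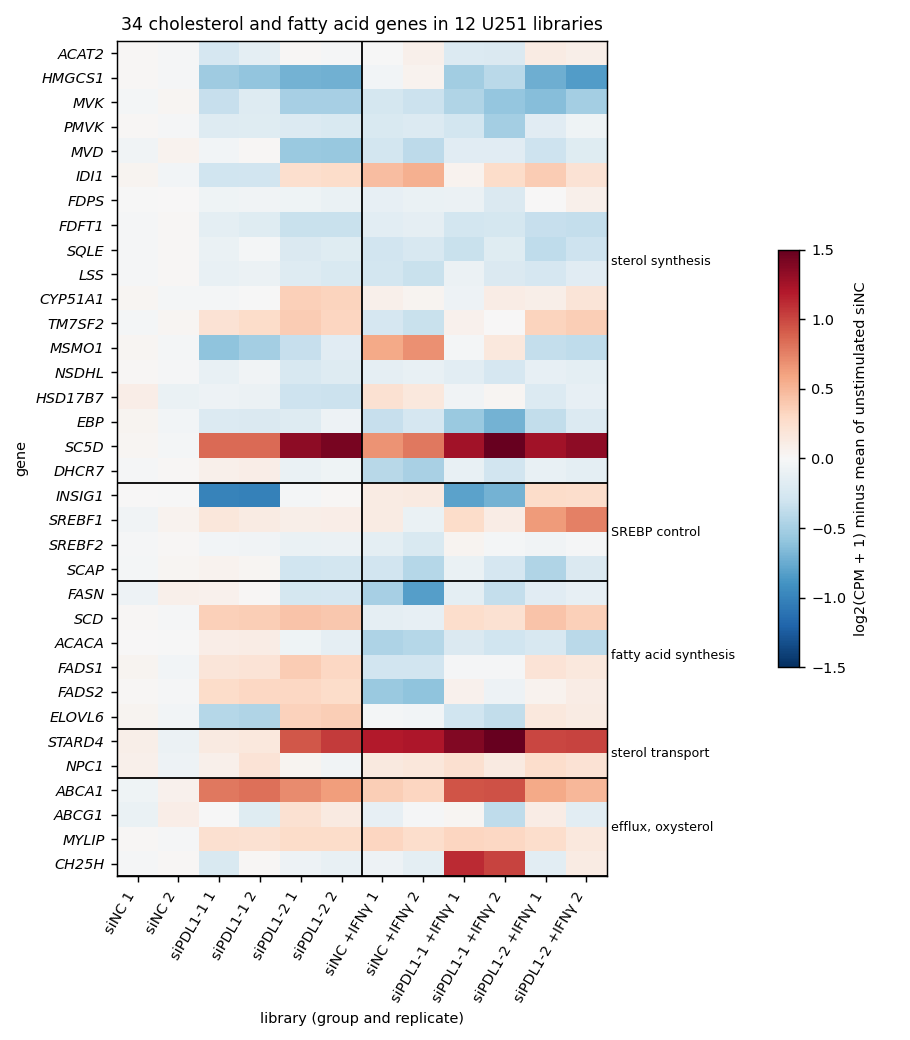
Heat map of the 34 genes (rows, ordered by role) in the 12 libraries (columns, group and replicate number). Colour gives log2(CPM + 1) minus the mean of the 2 unstimulated siNC libraries, red for higher and blue for lower. *INSIG1* is blue in the 4 siPDL1-1 libraries. *SC5D* is red in every library with a *PD-L1* siRNA and also in the siNC libraries with IFNγ.

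The genes did not move as a block in any comparison. With siPDL1-1, 3 of the 34 were called in unstimulated cells (8.82%, against 4% of all genes tested) and 4 after IFNγ (11.8%, against 5.47%). With siPDL1-2, 4 were called in unstimulated cells (11.8%, against 6.17%) and 5 after IFNγ (14.7%, against 3.13%). At FDR < 0.01 alone, siPDL1-1 raised 7 and lowered 7 in unstimulated cells (20.6% each), where 9.8% of all genes were higher and 8.99% lower. After IFNγ it raised 10 (29.4%, against 11.6% of all genes) and lowered 7 (20.6%, against 12.2%). For siPDL1-2, 11 were higher (32.4%, against 16.5%) and 7 lower (20.6%, against 11.9%) in unstimulated cells. After IFNγ, 9 were higher (26.5%, against 8.6%) and 5 lower (14.7%, against 9.75%). The median log2 fold change of the 34 genes lay between -0.08 and 0.09 in these 4 comparisons, and that of all genes between -0.01 and 0.03. All 4 comparisons of a *PD-L1* siRNA with siNC share control libraries within a state. Of the 34 genes, 33 averaged above 1 CPM, against 14252 of the 17922 tested genes with a known GC content. The shares of all genes, here and below, were not matched for abundance, and low genes pass such a test less easily.

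A set of 5 genes was higher at FDR < 0.01 in all 4 comparisons with siNC, namely *SC5D*, *TM7SF2*, *SCD*, *FADS1* and *FADS2*, and *HMGCS1* was lower in all 4. These were 14.7% and 2.94% of the 34 genes, against 2.4% and 2.32% of all genes tested, in comparisons that share controls. With smooth trends on GC content and transcript length removed, a setting chosen after seeing the data, the genes that passed in all 4 changed. The higher genes were then *SC5D*, *SCD*, *FADS1*, *FADS2* and *ABCA1*, and the lower genes *HMGCS1*, *MVK* and *MSMO1*. No share of all genes is given for that setting, so these genes are named without a background. In contrast, *ABCG1*, *ACACA*, *FDPS*, *NPC1*, *NSDHL*, *PMVK* and *SQLE* passed FDR < 0.01 in none of the 4 (20.6%, against 52.6% of all genes), although *ACACA*, *FDPS*, *PMVK* and *SQLE* each passed in at least 1 with the trends removed.

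*INSIG1*, which encodes a protein that retains SCAP in the endoplasmic reticulum when sterols are plentiful, separated the siRNAs. In unstimulated cells it was at 155 and 152 CPM with siNC, 76.4 and 75.6 CPM with siPDL1-1 and 151 and 155 CPM with siPDL1-2. After IFNγ the values were 167 and 169 CPM with siNC, 87.8 and 93.9 CPM with siPDL1-1 and 186 and 185 CPM with siPDL1-2. All 4 siPDL1-1 libraries lay far below the other 8, whose values ran from 151 to 186 CPM. The log2 fold change of siPDL1-1 against siNC was -1.004 in unstimulated cells (SE 0.043, FDR = 8.29e-10, limma) and -0.88 after IFNγ (SE 0.043, FDR = 7.83e-10). For siPDL1-2 it was -0.01 (FDR = 0.942) and 0.14 (FDR = 0.0231), neither of which passed the test, although the latter was 0.19 with the GC and length trends removed (FDR = 9.93e-05). The siRNAs differed directly, by -0.999 in unstimulated cells (FDR = 1.78e-09) and by -1.02 after IFNγ (FDR = 1.88e-10). These 4 calls were kept in every alternative tried.

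The other controllers of SREBP moved less. *SREBF1*, which encodes the SREBP most associated with fatty acid synthesis, was at 301 and 323 CPM with siNC, 349.9 and 340.1 CPM with siPDL1-1 and 331 and 334 CPM with siPDL1-2 in unstimulated cells. In stimulated cells it was at 340.3 and 291 CPM with siNC, 376 and 337 CPM with siPDL1-1 and 487 and 528 CPM with siPDL1-2. The siPDL1-2 libraries with IFNγ stood above the other 10. Its log2 fold change there was 0.69 against siNC (SE 0.072, FDR = 3.47e-05, limma), below the fold change threshold at 0.57 without siNC + IFNγ replicate 2 and at 0.46 with the GC and length trends removed. Reads were counted without regard to strand, and 6.75% of the exon bases of *SREBF1* (mean 361 CPM) are shared with the antisense neighbour *RAI1* (mean 90.2 CPM).

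*SREBF2* ran from 263 to 319 CPM over the 12 libraries. With siNC it was at 306 and 314 CPM without and 279 and 263 CPM with IFNγ. The corresponding values were 302, 299, 319 and 304 CPM with siPDL1-1 and 289, 291, 299.6 and 307 CPM with siPDL1-2. After IFNγ both siRNA groups lay above siNC, with log2 fold changes of 0.20 for siPDL1-1 (SE 0.041, FDR = 0.00146, limma) and 0.16 for siPDL1-2 (FDR = 0.00791), under the fold change threshold. With the GC and length trends removed they were 0.04 (FDR = 0.216) and 0.07 (FDR = 0.0394), and neither passed. *SCAP*, the escort of the SREBPs, was at 88.7 and 92.7 CPM with siNC and 93.7 and 92.2 CPM with siPDL1-1 in unstimulated cells. It was at 73.2 and 74.6 CPM with siPDL1-2, a log2 fold change of -0.29 (SE 0.073, FDR = 0.00521). After IFNγ *SCAP* was at 74.0 and 66.9 CPM with siNC, 84.7 and 76.1 CPM with siPDL1-1 and 66.2 and 77.7 CPM with siPDL1-2, and neither siRNA passed the test, while with the trends removed siPDL1-2 gave -0.15 (FDR = 0.00885).

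Within sterol synthesis, *HMGCS1* and *MSMO1* were lower and *SC5D* was higher with the *PD-L1* siRNAs. *HMGCS1*, the synthase that forms HMG-CoA at the start of the mevalonate pathway, was at 85.2 and 83.5 CPM with siNC, 58.1 and 55.5 CPM with siPDL1-1 and 51.3 and 50.8 CPM with siPDL1-2 in unstimulated cells. Under IFNγ the level was 82.2 and 87.7 CPM with siNC, 58.3 and 63.6 CPM with siPDL1-1 and 50.4 and 46.8 CPM with siPDL1-2. No library with a *PD-L1* siRNA overlapped a siNC library. The log2 fold changes of siPDL1-2 were -0.71 in unstimulated cells (SE 0.057, FDR = 3.24e-07, limma) and -0.79 after IFNγ (FDR = 2.42e-07), both called. Those of siPDL1-1, -0.56 (FDR = 3.87e-06) and -0.47 (FDR = 1.40e-05), were below the fold change threshold. The log2 effect of IFNγ on *HMGCS1* in siNC cells was 0.01 (SE 0.057) and did not pass the test (FDR = 0.921), but with the GC and length trends removed it was -0.32 (FDR = 1.65e-06).

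*SC5D*, the desaturase that acts close to the end of the pathway, was at 15.8 and 15.1 CPM with siNC, 28.7 and 28.6 CPM with siPDL1-1 and 40.8 and 43.3 CPM with siPDL1-2 in unstimulated cells. With IFNγ it was at 25.1 and 27.4 CPM with siNC, 38.3 and 46.0 CPM with siPDL1-1 and 38.4 and 40.6 CPM with siPDL1-2. Every library with a *PD-L1* siRNA exceeded both siNC libraries of its state. In unstimulated cells the log2 fold changes were 0.85 for siPDL1-1 (SE 0.079, FDR = 1.49e-06, limma) and 1.39 for siPDL1-2 (FDR = 1.08e-08). After IFNγ they were 0.66 for siPDL1-1 (FDR = 1.23e-05) and 0.57 for siPDL1-2 (FDR = 8.82e-05), the second just under the fold change threshold. Without siPDL1-1 + IFNγ replicate 2, the first was 0.53 and its call was lost. With GC and length trends removed, *SC5D* was called in all 4 comparisons, with values of 0.87, 0.98, 0.77 and 0.75 in the same order.

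*MSMO1* encodes an oxidase that acts in the removal of methyl groups from the sterol ring. In unstimulated cells *MSMO1* was at 65.9 and 63.0 CPM with siNC, 41.9 and 45.1 CPM with siPDL1-1 and 50.3 and 57.0 CPM with siPDL1-2. After IFNγ it was at 96.2 and 104 CPM with siNC, 62.8 and 72.2 CPM with siPDL1-1 and 50.1 and 49.4 CPM with siPDL1-2. Each library with a *PD-L1* siRNA lay below the siNC libraries of its state. The log2 fold change was -0.996 for siPDL1-2 after IFNγ (SE 0.073, FDR = 3.23e-07, limma) and -0.57 for siPDL1-1 (FDR = 2.83e-05). In unstimulated cells it was -0.56 for siPDL1-1 (FDR = 4.36e-05) and -0.26 for siPDL1-2, which missed the FDR threshold (FDR = 0.0101). With the GC and length trends removed the siPDL1-2 value was -0.59 (FDR = 9.6e-10) and was called.

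*TM7SF2*, a sterol reductase, was at 39.6 and 41.0 CPM with siNC, 47.0 and 48.8 CPM with siPDL1-1 and 52.6 and 50.4 CPM with siPDL1-2 in unstimulated cells. In stimulated cells it was at 33.5 and 31.7 CPM with siNC, 42.2 and 40.5 CPM with siPDL1-1 and 50.8 and 52.4 CPM with siPDL1-2. The groups did not overlap within a state. It was called with siPDL1-2 after IFNγ (log2 fold change 0.65, SE 0.055, FDR = 1.11e-06, limma), where the value was 0.47 with the GC and length trends removed. The siPDL1-1 values, 0.24 and 0.33, were then 0.16 (FDR = 0.0108) and 0.17 (FDR = 0.00695). Of the 18 sterol synthesis genes, 15 had a negative log2 fold change with siPDL1-1 (83.3%, against 46.7% of all genes) and 13 with siPDL1-2 (72.2%, against 45.6%) in unstimulated cells. At FDR < 0.01, 5 fell and 2 rose with siPDL1-1, and 6 fell and 4 rose with siPDL1-2, where 8.99% and 11.9% of all genes were lower and 9.8% and 16.5% higher. With the trends removed, more of the 18 fell and fewer rose with each siRNA, and no share of all genes is given for that setting. After IFNγ, 12 were negative with siPDL1-1 (66.7%, against 50.9%) and 8 with siPDL1-2 (44.4%, against 51.2%), where the median was 0.04. *MVK*, which phosphorylates mevalonate, fell with siPDL1-2 in both states, by 0.50 (FDR = 8.92e-05) and 0.28 (FDR = 0.00978) on the log2 scale. With the trends removed it was also lower with siPDL1-1, at -0.36 (FDR = 5.85e-05, limma) and -0.37 (FDR = 3.72e-05). *IDI1*, the isomerase that makes the pathway's branched building block, fell with siPDL1-1 in both states, by 0.29 (FDR = 0.00595) and 0.34 (FDR = 0.00196), and by 0.25 and 0.20 with the trends removed. With siPDL1-2 in unstimulated cells it was higher, by 0.27 (FDR = 0.00754), but at -0.05 with the trends removed (FDR = 0.489).

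The remaining sterol synthesis genes were not called in the comparisons with siNC. *MVD*, which decarboxylates mevalonate pyrophosphate, ran from 20.2 to 31.5 CPM and fell by 0.56 on the log2 scale with siPDL1-2 in unstimulated cells (SE 0.068, FDR = 1.41e-05, limma). *FDFT1*, which forms squalene, ran from 168 to 218 CPM and fell with siPDL1-2 in both states, by 0.34 (FDR = 6.57e-06) and 0.21 (FDR = 6.17e-04). With the trends removed it was also lower with siPDL1-1 in unstimulated cells, at -0.14 (FDR = 4.07e-04, limma). After IFNγ that value was -0.07 and did not pass (FDR = 0.0659). *HSD17B7*, a ketoreductase of the sterol ring, ran from 12.3 to 18.5 CPM and fell with siPDL1-2 in both states too, by 0.32 (FDR = 0.00481) and 0.36 (FDR = 0.00335). *LSS*, the cyclase that makes lanosterol, ran from 232 to 296 CPM and fell by 0.21 with siPDL1-2 in unstimulated cells (FDR = 0.0019). In contrast, *CYP51A1*, which demethylates lanosterol, ran from 62.6 to 84.6 CPM and rose there by 0.34 (FDR = 3.35e-04), or 0.17 with the GC and length trends removed.

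With siPDL1-1, *ACAT2*, the thiolase ahead of *HMGCS1*, fell by 0.20 in unstimulated cells (FDR = 0.00709, limma) and by 0.24 after IFNγ (FDR = 0.00153), the latter by 0.15 with the trends removed. It ran from 59.1 to 76.6 CPM and shares 17.2% of its exon bases with the opposite-strand gene *TCP1*, at a mean of 325 CPM. *EBP*, a sterol isomerase, ran from 20.3 to 34.8 CPM and fell by 0.33 with siPDL1-1 after IFNγ (FDR = 0.00301). *DHCR7* ran from 73.3 to 110.8 CPM and was higher after IFNγ with siPDL1-1 (0.25, FDR = 0.00229) and siPDL1-2 (0.32, FDR = 5.02e-04), at 0.14 and 0.24 with the trends removed. *SQLE*, the epoxidase of squalene, ran from 41.5 to 54.8 CPM, *NSDHL*, a sterol dehydrogenase, from 23.0 to 27.9 CPM, *PMVK*, the kinase after *MVK*, from 38.3 to 55.7 CPM, and *FDPS*, the farnesyl diphosphate synthase, from 243 to 296 CPM.

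**Figure D2:**
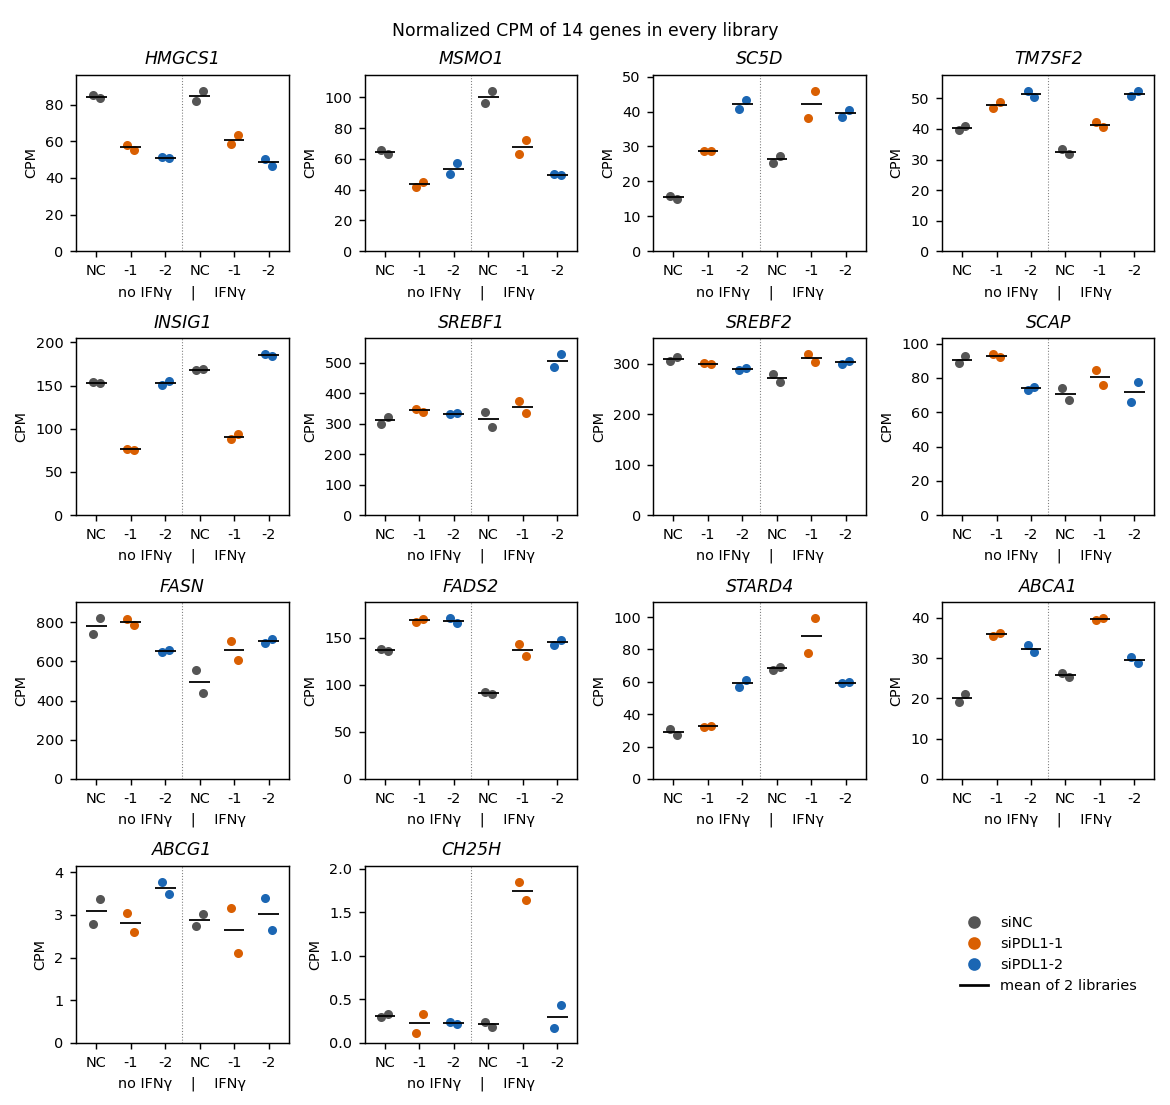
CPM (vertical axes, linear from 0) of 14 genes in every library, with unstimulated groups left and IFNγ groups right of the dotted line, points for libraries and bars for the mean of 2. *INSIG1* lies near 76 to 94 CPM in the siPDL1-1 groups and at 151 CPM or more elsewhere, and *CH25H* exceeds 1 CPM in the siPDL1-1 libraries with IFNγ and in no others.

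The desaturases of fatty acids rose with both siRNAs in both states. *SCD* was at 1534 and 1506 CPM in unstimulated siNC cells, 1947 and 1959.7 CPM with siPDL1-1 and 2038 and 2014 CPM with siPDL1-2. Its log2 fold changes were 0.36 for siPDL1-1 (SE 0.031, FDR = 8.42e-07, limma) and 0.41 for siPDL1-2 (FDR = 1.89e-07), and after IFNγ 0.38 (FDR = 2.95e-07) and 0.53 (FDR = 4.03e-08). These were all under the fold change threshold. *FADS1*, a desaturase of polyunsaturated fatty acids, rose by 0.19 to 0.47 on the log2 scale in the 4 comparisons, with FDR values from 1.68e-06 to 0.00253.

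*FADS2*, which catalyses the first desaturation of the same route, was at 138 and 135 CPM with siNC, 166 and 170.3 CPM with siPDL1-1 and 170.5 and 166 CPM with siPDL1-2 in unstimulated cells. Under IFNγ the level was 92.4 and 90.0 CPM with siNC, 143 and 130.2 CPM with siPDL1-1 and 142 and 148 CPM with siPDL1-2. Both siNC libraries were lowest in each state. It was called with siPDL1-2 after IFNγ (log2 fold change 0.67, SE 0.048, FDR = 2.42e-07, limma), at 0.58 with siPDL1-1 (FDR = 3.08e-07). With the GC and length trends removed the siPDL1-2 value was 0.56, under the fold change threshold. *FADS1* and *FADS2* lie on opposite strands and share 490 exon bases, so part of their reads cannot be told apart.

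*ELOVL6*, the elongase that lengthens palmitate, moved in opposite directions with the siRNAs in unstimulated cells. In unstimulated cells it was at 39.5 and 37.3 CPM with siNC, 28.4 and 27.7 CPM with siPDL1-1 and 49.1 and 49.7 CPM with siPDL1-2. It fell by 0.44 on the log2 scale with siPDL1-1 (SE 0.055, FDR = 2.55e-05, limma) and was 0.36 higher with siPDL1-2 (FDR = 1.16e-04), where the value was 0.17 and missed the threshold with the GC and length trends removed (FDR = 0.0104). The difference between the siRNAs, -0.80, was called (FDR = 1.73e-07) and was -0.60 with the GC and length trends removed. *FASN*, the synthase that builds palmitate, was at 742 and 820.0 CPM with siNC, 817 and 789 CPM with siPDL1-1 and 649 and 657 CPM with siPDL1-2 in unstimulated cells. With IFNγ it was at 554 and 439 CPM with siNC, 706 and 609.5 CPM with siPDL1-1 and 692 and 717 CPM with siPDL1-2. The siNC libraries with IFNγ were the lowest and also the most spread. Against them the log2 fold change was 0.51 for siPDL1-2 (SE 0.11, FDR = 0.00977) and 0.41 for siPDL1-1, which did not pass the test (FDR = 0.0217). With the GC and length trends removed they were 0.21 and 0.07.

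IFNγ alone lowered most fatty acid genes in siNC cells, and lowered more sterol synthesis genes than it raised. Of the 34 genes, 4 were called (11.8%, against 8.12% of all genes). At FDR < 0.01, 6 were higher (17.6%, against 17.9% of all genes) and 15 lower (44.1%, against 9.34%). The 6 fatty acid genes all had negative log2 fold changes, in each of the 4 scalings compared, and 5 of them passed FDR < 0.01. *FASN* fell by 0.66 on the log2 scale (SE 0.11, FDR = 0.00193, limma), *FADS2* by 0.58 (FDR = 2.06e-07) and *ACACA*, the carboxylase that commits acetyl-CoA to fatty acids, by 0.44 (FDR = 5.52e-06). The *FASN* call was lost at -0.59 without siNC unstimulated replicate 2, at -0.49 without siNC + IFNγ replicate 2 and at -0.43 with the GC and length trends removed. Of the 18 sterol synthesis genes, 8 were lower and 3 higher at FDR < 0.01 (median -0.13). A negative log2 fold change was seen in 11 (61.1%, against 49.8% of all genes). With plain CPM or with the trends removed it was 14, but the median of all genes also fell, from 0.001 to -0.06 in both. Among the 18, *DHCR7*, which catalyses the last step to cholesterol, fell by 0.45 (FDR = 1.13e-05).

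*STARD4*, a protein that carries cholesterol between membranes, had the largest IFNγ effect of the 34 genes in siNC cells. It was at 31.0 and 27.4 CPM without and 67.5 and 69.1 CPM with IFNγ in siNC cells. With siPDL1-1 it was at 32.2 and 32.7 CPM without and 77.9 and 99.2 CPM with IFNγ. With siPDL1-2 the values were 56.7 and 61.4 CPM without and 59.3 and 59.7 CPM with IFNγ, so those 4 libraries overlapped. The log2 effect of IFNγ was 1.20 in siNC cells (SE 0.091, FDR = 3.82e-07, limma), 1.41 in siPDL1-1 cells (FDR = 6.86e-08) and 0.01 in siPDL1-2 cells (FDR = 0.939). Its transcript had the lowest GC content of the 34 genes, 34.4%, and with the GC and length trends removed these effects were 0.60, 0.94 and 0.23, of which the first 2 were called. The siPDL1-2 effect in unstimulated cells, 0.99 (FDR = 3.64e-06), became 0.42, and the difference between the siRNAs there, -0.84 (FDR = 2.25e-05), became -0.25, and both calls were lost. The antisense gene *STARD4-AS1* averaged 13.02 CPM against 56.2 CPM for *STARD4*. *NPC1*, which exports cholesterol from lysosomes, passed the test in none of the comparisons, and with the trends removed its IFNγ effect in siPDL1-2 cells was 0.24 (FDR = 0.00242).

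*MSMO1* and *SC5D* were also called with IFNγ in siNC cells, with log2 effects of 0.63 (SE 0.073, FDR = 7.59e-06, limma) and 0.73 (SE 0.079, FDR = 3.42e-06). These became 0.20 and 0.29 with the GC and length trends removed, and both calls were lost. The *MSMO1* call was also lost at 0.57 without siNC + IFNγ replicate 2 and at 0.54 with plain CPM. In siPDL1-1 cells, IFNγ changed 3 called genes (8.82%, against 6.87% of all genes), and 12 at FDR < 0.01 (35.3%, against 22.9%). In siPDL1-2 cells, it changed 1 called gene, *SREBF1* (2.94%, against 5.27%), and 6 at FDR < 0.01 (17.6%, against 17.1%). The *SREBF1* effect there was 0.61 on the log2 scale (SE 0.072, FDR = 6.50e-05), and its call was lost at 0.55 without siPDL1-2 + IFNγ replicate 2, at 0.54 with plain CPM and at 0.46 with the trends removed. The counts of 12 and 6 at FDR < 0.01 were both larger with the trends removed, where no share of all genes is given.

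**Figure D3:**
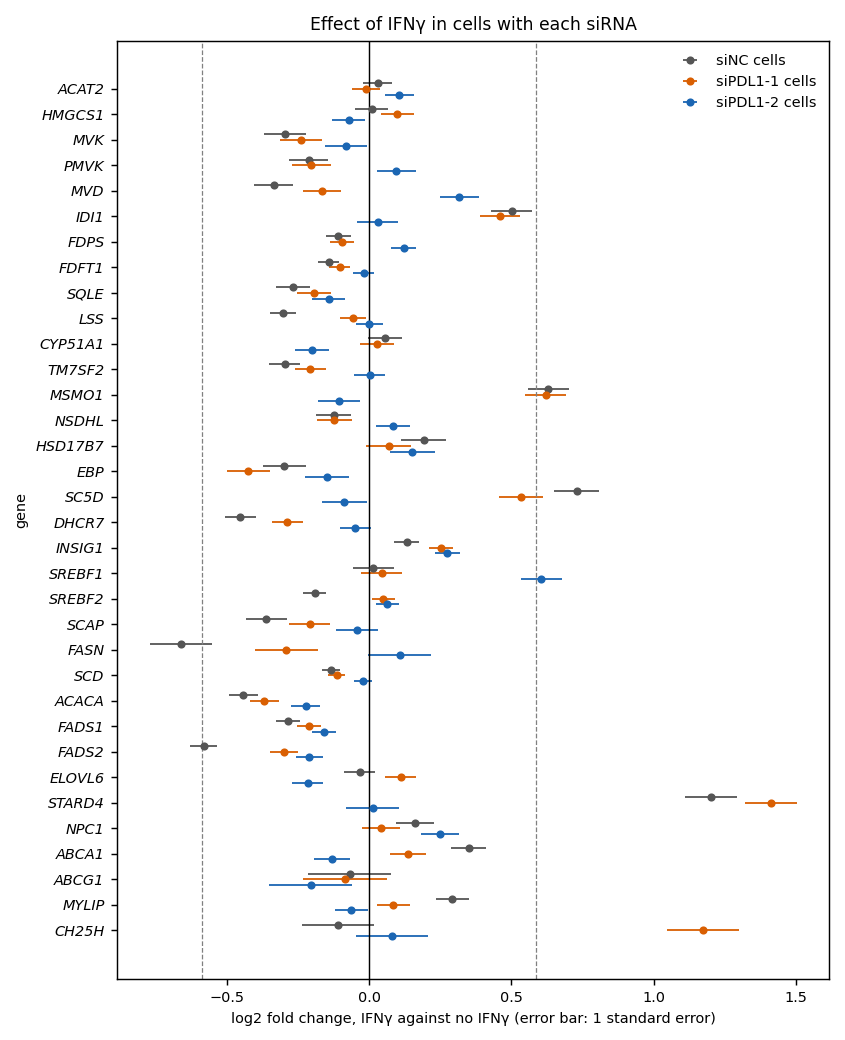
Log2 fold change of IFNγ against no IFNγ (horizontal axis, 1 standard error as bar) for the 34 genes in cells with siNC, siPDL1-1 or siPDL1-2. Dashed lines mark a fold change of 1.5, and *STARD4* lies at 1.20 and 1.41 in siNC and siPDL1-1 cells but at 0.01 in siPDL1-2 cells.

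Among the efflux genes, *ABCA1*, the exporter that loads cholesterol onto apolipoproteins, was at 19.1 and 21.1 CPM with siNC, 35.6 and 36.3 CPM with siPDL1-1 and 33.3 and 31.4 CPM with siPDL1-2 in unstimulated cells. After IFNγ it was at 26.3 and 25.4 CPM with siNC, 39.4 and 39.9 CPM with siPDL1-1 and 30.3 and 28.7 CPM with siPDL1-2. All libraries with a *PD-L1* siRNA were above the siNC libraries of their state. In unstimulated cells it rose with both siRNAs, by log2 fold changes of 0.81 for siPDL1-1 (SE 0.063, FDR = 2.73e-07, limma) and 0.66 for siPDL1-2 (FDR = 1.53e-06). After IFNγ it was called for siPDL1-1 at 0.60 (FDR = 3.39e-06), but the value was 0.57 and the call was lost without siNC + IFNγ replicate 2. For siPDL1-2 after IFNγ it was 0.18 and did not pass (FDR = 0.0395), or 0.24 with the GC and length trends removed (FDR = 0.00148). *ABCG1*, the exporter to high-density lipoprotein, was low and passed no test. Its values were 2.79 and 3.37 CPM with siNC, 3.05 and 2.59 CPM with siPDL1-1 and 3.76 and 3.48 CPM with siPDL1-2 in unstimulated cells. After IFNγ they were 2.73 and 3.03, 3.15 and 2.12, and 3.40 and 2.64 CPM in the same order, with overlap of all groups. The SE of *ABCG1* was 0.15 on the log2 scale, so a small change was not detectable. *MYLIP*, an LXR target that marks lipoprotein receptors for degradation, rose in unstimulated cells with siPDL1-1 (log2 fold change 0.23, FDR = 0.00671) and siPDL1-2 (0.27, FDR = 0.00156).

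*CH25H*, the enzyme that makes an oxysterol with antiviral activity, was at 1.84 and 1.65 CPM in the siPDL1-1 libraries with IFNγ, from 65 and 35 reads. With siNC it was at 0.294 and 0.329 CPM without and 0.243 and 0.187 CPM with IFNγ. It was at 0.116 and 0.330 CPM in unstimulated siPDL1-1 cells and, with siPDL1-2, at 0.240 and 0.214 CPM without and 0.176 and 0.430 CPM with IFNγ. Those 10 libraries held 3 to 14 reads each. The log2 fold change of siPDL1-1 against siNC after IFNγ was 1.18 (SE 0.13, FDR = 4.18e-06, limma), which the pseudocount makes smaller, and on the recovered reads edgeR's quasi-likelihood test gave 3.003 (FDR = 2.49e-05). *CH25H* is known as a type I interferon-induced gene, and a list of 15 other such genes was highest in the same libraries, with sums of 5217 and 5135 CPM. The list also rose in other groups, where *CH25H* had 3 to 14 reads per library and a change in it could be missed. In siNC cells the sums of the list were 96.1 and 97.9 CPM without and 569 and 539 CPM with IFNγ. There, 14 of the 15 genes were called, all higher (8.12% of all genes were called in either direction). In siPDL1-2 cells they were 87.9 and 86.3 CPM without and 606 and 636 CPM with IFNγ, and 13 were called (5.27% of all genes). In unstimulated siPDL1-1 cells they were 159 and 158 CPM, and 10 were called against siNC (4% of all genes). With siPDL1-1 after IFNγ, 14 of the 15 were called against siNC (5.47% of all genes), and their part in the result for *CH25H* was not tested.

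The effect of siPDL1-1 depended on IFNγ for 1 of the 34 genes (2.94%, against 0.968% of all genes), *CH25H*. The effect of siPDL1-2 depended on IFNγ for 6 (17.6%, against 7.62%). Its effect was higher with IFNγ than without for *FASN* (difference of log2 fold changes 0.77, SE 0.16, FDR = 0.00804, limma), *MVD* (0.65, FDR = 2.26e-04) and *SREBF1* (0.59, FDR = 0.00137). It was lower for *STARD4* (-1.19, FDR = 6.37e-05), *SC5D* (-0.82, FDR = 1.43e-04) and *MSMO1* (-0.73, FDR = 1.79e-04). The *FASN* and *SREBF1* calls were each lost without single libraries, as listed in the closing section. Directly compared, the siRNAs differed for 3 genes in unstimulated cells (8.82%, against 4.35% of all genes), *INSIG1*, *STARD4* and *ELOVL6*. After IFNγ they differed for 2 (5.88%, against 2.23%), *INSIG1* and *CH25H*.

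GC content moved with these comparisons across the whole transcriptome. Over 14252 genes above a mean of 1 CPM, the dependence of the siPDL1-2 effect on IFNγ had a correlation of 0.704 with the GC content of the transcript, where all genes share the same libraries. Its median was -0.49 for transcripts of at most 40% GC and 0.34 for those above 60%. For siPDL1-2 against siNC, these medians were 0.33 and -0.14 in unstimulated cells and -0.17 and 0.22 after IFNγ. The corresponding medians for siPDL1-1 were -0.03 and 0.08, and -0.14 and 0.21. The 3 genes with a higher siPDL1-2 effect under IFNγ had transcripts of 63.2% to 65.5% GC, and the 3 with a lower effect had 34.4% to 37.4%. With the trends removed, none of the 6 was called, and their differences ran from -0.37 to 0.35.

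**Figure D4:**
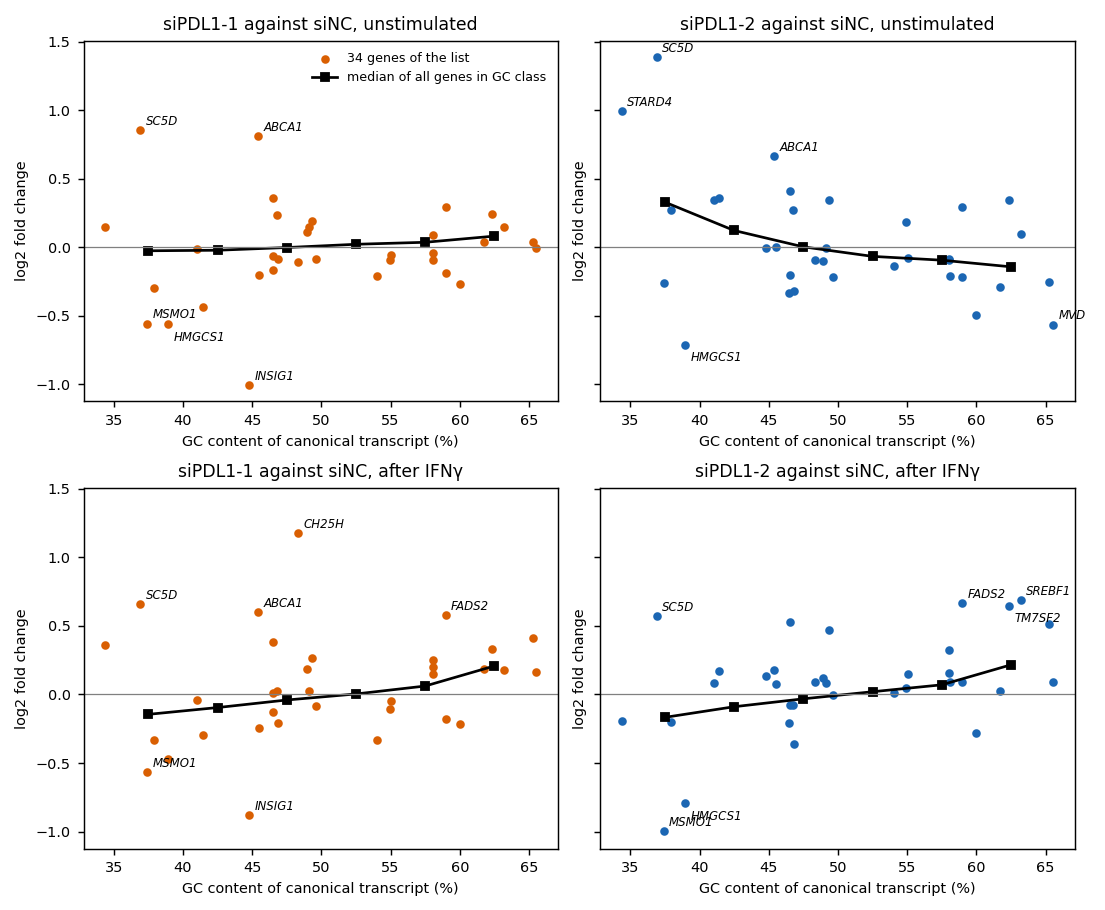
Log2 fold change of the 34 genes (points) against the GC content of their transcripts in percent, for each *PD-L1* siRNA against siNC without and with IFNγ. Black squares give the median of all genes in each GC class, which falls from 0.33 to -0.14 for siPDL1-2 in unstimulated cells and rises from -0.17 to 0.22 after IFNγ.

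Of the other genes of these pathways, 68 were tested from lists of synthesis (31), SREBP control (11) and uptake, efflux and storage (26). In unstimulated cells 6 were called higher and 0 lower with siPDL1-1 (8.82%, against 4% of all genes), and 7 higher and 0 lower with siPDL1-2 (10.3%, against 6.17%). After IFNγ the counts were 2 higher and 0 lower with siPDL1-1 (2.94%, against 5.47%), and 1 higher and 1 lower with siPDL1-2 (2.94%, against 3.13%), so neither exceeded the background. The lower gene was the elongase *ELOVL4* (-0.59, FDR = 0.00539). *LIPA*, the lysosomal lipase that frees cholesterol from its esters, was at 53.9 and 53.6 CPM in unstimulated siNC cells, 97.2 and 98.7 CPM with siPDL1-1 and 95.9 and 97.1 CPM with siPDL1-2. All 4 libraries with a *PD-L1* siRNA were above siNC, with log2 fold changes of 0.85 (SE 0.047, FDR = 1.04e-08, limma) and 0.83 (FDR = 1.00e-08), and both calls were kept with the GC and length trends removed (0.90 and 0.63). After IFNγ it was called with siPDL1-1 at 0.76 (FDR = 1.28e-08) and was not called with siPDL1-2.

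*ABCA7*, a lipid transporter related to *ABCA1*, was at 39.6 and 31.7 CPM in siNC cells with IFNγ, 78.5 and 69.7 CPM with siPDL1-1 and 67.9 and 67.0 CPM with siPDL1-2. The log2 fold changes were 1.04 (SE 0.095, FDR = 4.24e-06, limma) and 0.91 (FDR = 2.80e-05), and both remained called at 0.72 and 0.63 with the trends removed. *LPCAT3*, an LXR target that remodels phospholipids, was called with siPDL1-1 in unstimulated cells (0.66, FDR = 7.56e-06). *PNPLA3*, *HACD1* and *ELOVL2* were called there too, at 0.79, 0.73 and 0.61. With siPDL1-2 in unstimulated cells, *ACSL4* (0.84), *HACD1* (0.84), *ELOVL7* (0.74), *ELOVL2* (0.66) and *HSD17B12* (0.63) were called, of which *HACD1* was kept with the trends removed. With IFNγ in siNC cells, 6 of the 68 were called higher and 0 lower (8.82%), close to the 8.12% of all genes. They were *ACSL4* (0.88), *ELOVL7* (0.82), *LIPA* (0.78), *INSIG2* (0.71), another retention protein for SCAP, *SOAT1* (0.70), which esterifies cholesterol for storage, and *HSD17B12* (0.60), and none of the 6 was called with the trends removed.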

How the data were processed

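RNA-seq of 12 U251 libraries was analysed. The deposited table held a signal per gene, CPM normalized by the authors in CLC Genomics Workbench after mapping to GRCh38 with the Ensembl annotation and counting on both strands. The labels and the paper's methods name different RNA and library kits and sequencers. Whole reads were recovered for 100% of values (tolerance 0.02 read), with 17.1e6 to 55.7e6 reads per library. Replicates were not duplicates (mean chi-square per gene 1.85 to 7.76).

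Genes passing edgeR's filter (10 reads, 15 in total) were fitted in limma 3.58.1 (trend, robust, R 4.3.3) on log2(CPM + 1) over 6 groups with 11 comparisons. A gene was called at FDR < 0.01 and fold change > 1.5. Tested on simulated data for siPDL1-1 against siNC after IFNγ (17669 genes), 199 of 200 planted genes were recovered with 3 false calls, and 0 genes were called without planted changes. The planted changes were all 1.5 on the log2 scale, and smaller changes were not tried. The simulated libraries held no trend on GC content, so the recovery does not cover calls that moved with it. Alternatives were pseudocount 0.1, no filter, plain CPM, DESeq2 1.42.0 size factors and Wald test, edgeR 4.0.16 quasi-likelihood test, a replicate block, fits within 1 state and leaving out each library. Removal of GC content and transcript length trends was chosen after seeing the data. Values in every library are given for 14 genes, namely *INSIG1*, *SREBF1*, *SREBF2*, *SCAP*, *ABCA1*, *ABCG1*, *CH25H* and those called in a comparison with siNC or with IFNγ in siNC cells. Of other pathway genes, at most 6 called genes per comparison are named, by size of change. *ELOVL6* and *SCD* were added after their values were seen. The 34 genes and the lists were chosen with earlier results of these data known. Reads of overlapping antisense genes were not separated.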

Additional observations from a re-analysis of the deposited data

Results flagged for a closer look

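For 7 results, the effect of an siRNA differed between cells with and without IFNγ by a direct test of that difference (limma, FDR < 0.01, fold change above 1.5). For siPDL1-1 this was *CH25H*, with a difference of 1.28 on the log2 scale (SE 0.18, FDR = 4.42e-04), which was 1.31 with the GC and length trends removed. DESeq2 gave no adjusted p-value for this gene.

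For siPDL1-2 the differences were 0.77 for *FASN*, 0.65 for *MVD*, 0.59 for *SREBF1*, -0.73 for *MSMO1*, -0.82 for *SC5D* and -1.19 for *STARD4*. With the GC and length trends removed they were 0.35, 0.17, 0.27, -0.23, -0.23 and -0.37 in the same order, and none was called. The part of GC content in these differences was not tested further.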

How the results depend on the processing

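Of the 36 called results for single genes and the counts of calls, 0 reversed. Of these 36, 27 were kept under every planned test, scaling, filter and left-out library that gave a value, and 9 lost a call without some library. With GC and length trends removed, which was not planned, 20 of the 36 were kept and 16 lost their call. Values that were not called could turn sign with the trends removed, as *IDI1* (0.27 to -0.05) and *SCAP* (0.03 to -0.15, after IFNγ) did with siPDL1-2, and *HMGCS1* with IFNγ in siNC cells (0.01 to -0.32). Without a fold threshold, genes called (and genes of the list) were 4901 (21), 4122 (12) and 3080 (6) for IFNγ in siNC, siPDL1-1 and siPDL1-2 cells, against 1460 (4), 1236 (3) and 947 (1). For siPDL1-1 against siNC they were 3379 (14) unstimulated and 4277 (17) after IFNγ, against 720 (3) and 984 (4). For siPDL1-2 they were 5107 (18) and 3300 (14), against 1110 (4) and 562 (5). Between the siRNAs they were 4338 (12) and 1882 (14), against 783 (3) and 401 (2). For the dependence on IFNγ they were 293 genes for siPDL1-1, against 174, and 3067 (14) for siPDL1-2, against 1370 (6).

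Of the list (and of all genes), plain CPM called 0 (958) for IFNγ in siPDL1-2 cells. For siPDL1-1 in unstimulated cells, edgeR called 5 (872) and DESeq2 5 (743). DESeq2 called 1 (378) between the siRNAs after IFNγ, and 0 (162) for the dependence of siPDL1-1 on IFNγ, where *CH25H* had no adjusted p-value. With GC and length trends removed, 1 (983) was called for IFNγ in siNC cells, 0 (891) in siPDL1-2 cells, 3 (382) for siPDL1-2 after IFNγ and 0 (259) for its dependence on IFNγ. All genes called then numbered 653 for siPDL1-2 and 283 between the siRNAs in unstimulated cells.

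Leaving out single libraries gave 2 to 5 of the list for IFNγ in siNC cells (2 without siNC + IFNγ replicate 2), 0 to 1 in siPDL1-2 cells (0 without siPDL1-2 + IFNγ replicate 2) and 2 to 4 between the siRNAs after IFNγ (4 without siPDL1-1 + IFNγ replicate 1). For the dependence of siPDL1-2 on IFNγ it gave 890 to 1662 genes, 890 without siPDL1-2 + IFNγ replicate 2. There the *SREBF1* call was lost without siNC replicate 2 (0.54), siNC + IFNγ replicate 2 (0.48), siPDL1-2 replicate 1 (0.58) or siPDL1-2 + IFNγ replicate 2 (0.53). The *FASN* call was lost without siNC replicate 2 (0.70), siPDL1-2 replicate 1 (0.76) or 2 (0.78), or siPDL1-2 + IFNγ replicate 1 (0.79) or 2 (0.74). The *MSMO1* effect of IFNγ in siPDL1-1 cells lost its call without siPDL1-1 replicate 1 (0.57) or siPDL1-1 + IFNγ replicate 2 (0.52), with plain CPM (0.55) and with the trends removed (0.30), against 0.62. Causes were not tested.

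Same-numbered libraries deviated together in 4 of 15 pairs of groups (r above 0.1, range -0.299 to 0.363), so the numbers were not taken as pairs. With the replicate block, all 36 results for single genes kept their call. With 2 libraries a group, small changes of low genes such as *ABCG1* and *CH25H* could be missed.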
